A study of Mus musculus with 7 samples.

Results

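Cell cycle genes of G1/S and G2/M were examined as a list of 49 genes chosen by symbol from the 55417 genes of the count table, 24 that act at the G1/S transition and in DNA replication and 25 that act in G2 and mitosis. All 49 passed the filter on low counts, which left 13329 genes for testing. RNA sequencing of 7 libraries was used, all from RAW264.7, a mouse macrophage-like cell line, in which the RNA of Dpep2, a membrane dipeptidase, was targeted by short hairpin RNAs. The groups were shNT, the control hairpin (n = 3), shDpep2.968 (n = 2) and shDpep2.759 (n = 2), the 2 latter being different hairpins against Dpep2. All groups carried a hairpin, and the labels give no further agent, no dose and no time. Whether each hairpin line is 1 clone or a pool, and whether replicates are separate cultures, is not given in the sources used here, so p-values measure the spread between these libraries, which may be technical.

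The libraries held 16548648 to 18401060 counts, and member genes took 0.509% to 0.636% of each. Levels are given as CPM, counts relative to the scaled size of each library. Dpep2 stood at 52.1 to 60.3 CPM with shNT, 17.9 to 22.4 CPM with shDpep2.968 and 19.5 to 24.9 CPM with shDpep2.759, a log2 fold change of -1.41 ± 0.13 (SE) for both hairpins averaged (edgeR quasi-likelihood test, adjusted p = 8.07e-05). Of 10 macrophage markers 9 passed the filter, and their summed level was 14808 to 16365 CPM with shNT, 15613 to 15818 CPM with shDpep2.968 and 17709 to 21599 CPM with shDpep2.759. Summed markers of T cells and of epithelial cells stayed at or under 0.347 CPM in every library, those of B cells at or under 3.98 CPM and those of fibroblasts at or under 3.69 CPM. The neutrophil list reached 100 to 237 CPM with shDpep2.759 against 17.3 to 33.7 CPM with shNT and 34.2 to 50.3 CPM with shDpep2.968, and of its 6 genes 1 passed the filter, S100a8; their part in the results on shDpep2.759 was not tested. Library shDpep2.759 replicate 1 stood apart from its partner. Their counts differed by a chi-square of 43.41 per degree of freedom, against 14.93 to 25.22 for the other pairs of replicates.

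A dividing cell copies its DNA in S phase and separates the copies in mitosis, and each step is driven by cyclins that switch on cyclin-dependent kinases. Entry into S phase follows the release of E2F transcription factors from the retinoblastoma protein, and E2F targets include the MCM helicase, the origin licensing factors and the enzymes that make deoxynucleotides. Genes of G2 and mitosis are held down in resting cells by the DREAM complex and are later switched on by B-MYB and FOXM1, through promoter elements called CHR (cell cycle genes homology region) that often lie near CCAAT boxes bound by NF-Y. RAW264.7 is a transformed line that divides in culture, unlike most resident macrophages.

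Promoter sequences are shown first because these elements are the textbook switches of each phase. RefSeq promoters on GRCm38.p6 matched 41 of the 49 members by symbol, with 44 windows in all, and the 250 bases before each start were searched on both strands. Aurkb, Ccna2, Ccne2, Gins1, Gins2, Kif20a, Mcm4 and Tpx2 were not matched. An E2F word (TTTCCCGC, TTTGGCGC, TTTCGCGC or TTTGCCGC) was found in 6 of 22 G1/S windows (27.3%), 1 of 22 G2/M windows (4.55%) and 1.86% of 32851 windows in the table. A CHR word (TTTGAA or TTTAAA) was found in 4 G1/S windows (18.2%), 12 G2/M windows (54.5%) and 25.2% of all windows. CCAAT was found in 16 G1/S windows (72.7%), 19 G2/M windows (86.4%) and 33.8% of all windows. These matches describe letters in the windows and are not evidence of binding.

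**Figure D1:**
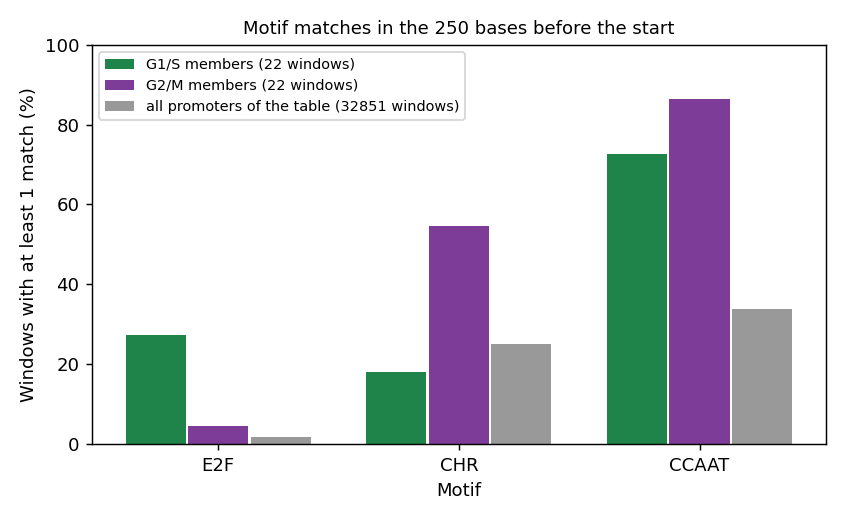
Share of promoter windows (y axis, percent) that hold at least 1 match of each motif (x axis), for G1/S members, G2/M members and all promoters of the table, in the 250 bases before the start. E2F words were in 27.3% of G1/S windows against 4.55% of G2/M windows, and CHR words in 54.5% of G2/M windows against 18.2% of G1/S windows.

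The E2F words of the G1/S members lay 40 to 185 bases before the start. Stretches of 30 bases around them are printed for Mcm6, Mcm7, Pola1 and Uhrf1, and for Cdk1, the G2/M member that held an E2F word, with the E2F word in capitals, 5′ to 3′ on the strand of the gene (GRCm38.p6). Mcm5 and Mcm6 also held overlapping E2F words on opposite strands, which are counted once per window.
Mcm6 (chr1:128359734-128359763, minus strand): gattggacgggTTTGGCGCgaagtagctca
Mcm7 (chr5:138172030-138172059, minus strand): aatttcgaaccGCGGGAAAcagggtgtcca
Pola1 (chrX:93632275-93632304, minus strand): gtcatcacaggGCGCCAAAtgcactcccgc
Uhrf1 (chr17:56304117-56304146, plus strand): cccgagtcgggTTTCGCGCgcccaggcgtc
Cdk1 (chr10:69353025-69353054, minus strand): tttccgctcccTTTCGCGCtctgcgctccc

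Whole windows are printed for Cdc6, with its E2F word in capitals, and for Top2a and Cdk1, with their CHR words in capitals, because these members carry the motif of their phase and are followed through the comparisons. In Cdk1 and Top2a the nearest CHR word began 15 and 23 bases before the start. Among the 12 G2/M windows with a CHR word, 8 had the nearest one within 50 bases of the start and 11 also held CCAAT.
Cdc6 (chr11:98907901-98908150, plus strand): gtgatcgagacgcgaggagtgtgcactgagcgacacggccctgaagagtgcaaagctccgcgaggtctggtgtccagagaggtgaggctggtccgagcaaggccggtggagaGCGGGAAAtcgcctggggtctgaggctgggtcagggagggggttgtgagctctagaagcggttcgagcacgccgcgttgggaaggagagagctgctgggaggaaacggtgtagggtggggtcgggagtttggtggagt
Top2a (chr11:99024190-99024439, minus strand): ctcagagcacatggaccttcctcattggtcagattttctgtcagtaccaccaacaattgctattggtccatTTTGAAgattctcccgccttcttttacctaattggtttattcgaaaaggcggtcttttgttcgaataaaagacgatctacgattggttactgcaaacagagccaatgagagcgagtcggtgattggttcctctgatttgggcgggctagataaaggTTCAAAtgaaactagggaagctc
Cdk1 (chr10:69352913-69353162, minus strand): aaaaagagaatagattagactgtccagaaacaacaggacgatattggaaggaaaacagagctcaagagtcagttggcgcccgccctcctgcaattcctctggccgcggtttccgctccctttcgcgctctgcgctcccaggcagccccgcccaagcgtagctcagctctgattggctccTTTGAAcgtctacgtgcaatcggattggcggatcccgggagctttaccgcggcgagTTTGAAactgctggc

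Levels of the members were set beside each other per kilobase of the longest coding transcript. In G1/S the highest mean level was that of Pcna, the sliding clamp of replicative polymerases, at 168 CPM per kilobase, followed by Rrm2, the regulated subunit of ribonucleotide reductase, at 123. The lowest were Pola1, the catalytic subunit of DNA polymerase alpha, at 10.7 and Gins2, a subunit of the GINS complex of the helicase, at 11.5 CPM per kilobase. In G2/M the highest were Top2a, the topoisomerase that untangles sister chromatids, at 61.5 and Ccnb1, cyclin B1, at 54.8 CPM per kilobase. Cenpf, a large kinetochore protein, was lowest at 3.97, and Nusap1, a spindle microtubule protein, stood at 9.02 CPM per kilobase. Counts per member and library ran from 330 to 6884, so every member was well counted in every library.

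Averaged over both hairpins, no member passed the test. None of 49 had an adjusted p under 0.05 in edgeR's quasi-likelihood test with Benjamini-Hochberg adjustment over all 13329 tested genes, where 7.59% of tested genes were called, 3.44% higher and 4.15% lower. At an unadjusted p under 0.05, 7 members were higher (14.3%) and 1 was lower (2.04%), against 10.4% and 12.5% of tested genes. DESeq2 called 1 member, Mcm10, where it called 8.76% of tested genes, and limma-voom called 0. The median log2 fold change was 0.11 over the 24 G1/S genes and 0.08 over the 25 G2/M genes, against 0.003 over all tested genes. The G2/M median was 0.01 with shNT replicate 2 left out, 0.03 with shDpep2.759 replicate 2 left out, 0.04 with shDpep2.968 replicate 2 left out, 0.05 with shNT replicate 3 left out and 0.01 with a correction for GC content and length. The 95% interval of the difference lay within 1.5-fold in either direction for 48 of 49 members, the exception being Ccne2, against 58.9% of tested genes. With shDpep2.968 alone 39 members were within it (46.7% of tested genes), and with shDpep2.759 alone 45 (50.6%). Between the hairpins 30 members were within it (44.6%). The tested genes include genes of lower count than any member. In bulk RNA, fewer cells in a phase and less RNA per cell cannot be told apart.

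The G1/S members closest to the threshold belonged to replication. Mcm10, which helps to activate the helicase at origins, stood at 79.7, 76.4 and 79.4 CPM with shNT, 99.7 and 104 CPM with shDpep2.968, and 89.4 and 97.6 CPM with shDpep2.759. All 4 hairpin libraries lay above all 3 control libraries, and the log2 fold change was 0.31 ± 0.09 (SE, adjusted p = 0.0602, edgeR). Cdc6, which loads the helicase onto origins and whose promoter with an E2F word is printed above, stood at 53.7, 50.1 and 52.0 CPM, then 66.8 and 61.3 CPM, then 60.1 and 60.6 CPM, in the same order of groups. Its groups did not overlap either, with a log2 fold change of 0.26 ± 0.10 (SE, adjusted p = 0.126, edgeR). Mcm2, a subunit of the core helicase, overlapped between groups at 179.8, 201 and 190.4 CPM with shNT, 223 and 169 CPM with shDpep2.968 and 198 and 199.7 CPM with shDpep2.759. Over the 10 helicase genes the median log2 fold change was 0.08, with 7 above 0 and 3 below, and the other 7, which are Mcm3 to Mcm7, Gins1 and Cdc45, ran from -0.13 in Mcm7 to 0.23 in Mcm5.

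Deoxynucleotide supply and the replication fork gave mixed values. Tyms, thymidylate synthase, stood at 36.1, 36.5 and 34.2 CPM with shNT, 44.8 and 46.4 CPM with shDpep2.968, and 49.2 and 39.4 CPM with shDpep2.759. Every hairpin library exceeded every control library, with a log2 fold change of 0.34 ± 0.11 (SE, adjusted p = 0.0874, edgeR). Pcna stood at 238, 234 and 226 CPM, then 267 and 309 CPM, then 274 and 242 CPM, so that its lowest hairpin library lay just above its highest control (log2 fold change 0.23 ± 0.10 SE, adjusted p = 0.212, edgeR). Pola1 stood at 57.9, 47.2 and 58.1 CPM with shNT, 61.3 and 74.3 CPM with shDpep2.968, and 47.2 and 56.2 CPM with shDpep2.759. For Pola1 both shDpep2.968 libraries lay above every other library, and shDpep2.759 overlapped shNT. Gins2 overlapped between all groups, with 39.5, 47.6 and 43.4 CPM, then 42.4 and 43.7 CPM, then 53.6 and 43.3 CPM. Prim1 (primase), Rfc4 (clamp loader) and Rrm1 (large reductase subunit) had log2 fold changes of 0.08, -0.01 and 0.19, none called.

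Regulators of the G1/S transition included the least precise member. Ccne2, cyclin E2, stood at 40.9, 26.8 and 26.7 CPM with shNT, 49.3 and 72.5 CPM with shDpep2.968, and 26.4 and 41.0 CPM with shDpep2.759. The spread within each group was wide. Both shDpep2.968 libraries lay above every other library, while shDpep2.759 overlapped shNT. The averaged log2 fold change of Ccne2 was 0.53 ± 0.22 (SE, adjusted p = 0.207, edgeR). Its coefficient of variation between replicates was 26% to 30.6% in the 3 groups, the highest of the G1/S genes in each, where the median gene varied by 5.88% to 7.43%. Slbp (histone mRNA binding), Cdt1 (licensing) and Uhrf1 (maintenance of DNA methylation) had averaged log2 fold changes of 0.23, 0.01 and 0.03, none called.

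Among the G2/M genes, 2 had every hairpin library on 1 side of every control library, in opposite directions. Bub1b, the spindle checkpoint protein BUBR1, stood at 150.2, 159 and 165 CPM with shNT, 136 and 141 CPM with shDpep2.968, and 141 and 129 CPM with shDpep2.759. It was the single member with every hairpin library under every control library (log2 fold change -0.21 ± 0.10 SE, adjusted p = 0.214, edgeR). Kif20a, a kinesin of the central spindle, stood at 123.5, 108 and 118 CPM with shNT, 144 and 140.4 CPM with shDpep2.968, and 136 and 133 CPM with shDpep2.759. All hairpin libraries lay above the controls (0.25 ± 0.10 SE, adjusted p = 0.138, edgeR). With Mcm10, Pcna, Tyms and Cdc6, that made 5 members above (10.2%) and 1 below (2.04%) without overlap, against 9.03% and 9.51% of tested genes.

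The other G2/M members all overlapped the controls in the averaged comparison, with Bub1 the furthest at a log2 fold change of 0.25 (adjusted p = 0.26, edgeR). Ccnb1 stood at 133, 125 and 137 CPM with shNT, 149 and 156 CPM with shDpep2.968, and 125 and 129 CPM with shDpep2.759. Cdk1, the mitotic kinase that cyclin B switches on, stood at 99.8, 91.0 and 82.9 CPM, then 95.8 and 106 CPM, then 85.8 and 84.8 CPM. The averaged log2 fold changes were 0.08 ± 0.09 for Ccnb1 and 0.02 ± 0.10 for Cdk1 (SE), smaller than their errors. Aurkb, the kinase of the chromosomal passenger complex, stood at 68.2, 77.1 and 79.5 CPM with shNT, 74.6 and 64.2 CPM with shDpep2.968, and 66.3 and 61.6 CPM with shDpep2.759 (-0.17 ± 0.10 SE, adjusted p = 0.36, edgeR). Tpx2, which nucleates spindle microtubules, stood at 163, 144 and 154 CPM, then 176 and 181 CPM, then 157 and 161 CPM. Both shDpep2.968 libraries lay above every other library, and shDpep2.759 lay among the controls. The averaged log2 fold change of Tpx2 was 0.13 ± 0.10 (SE, adjusted p = 0.436, edgeR). Of the 25 G2/M genes, 16 had a log2 fold change above 0, as did 19 of the 24 G1/S genes, against 50.3% of tested genes.

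**Figure D2:**
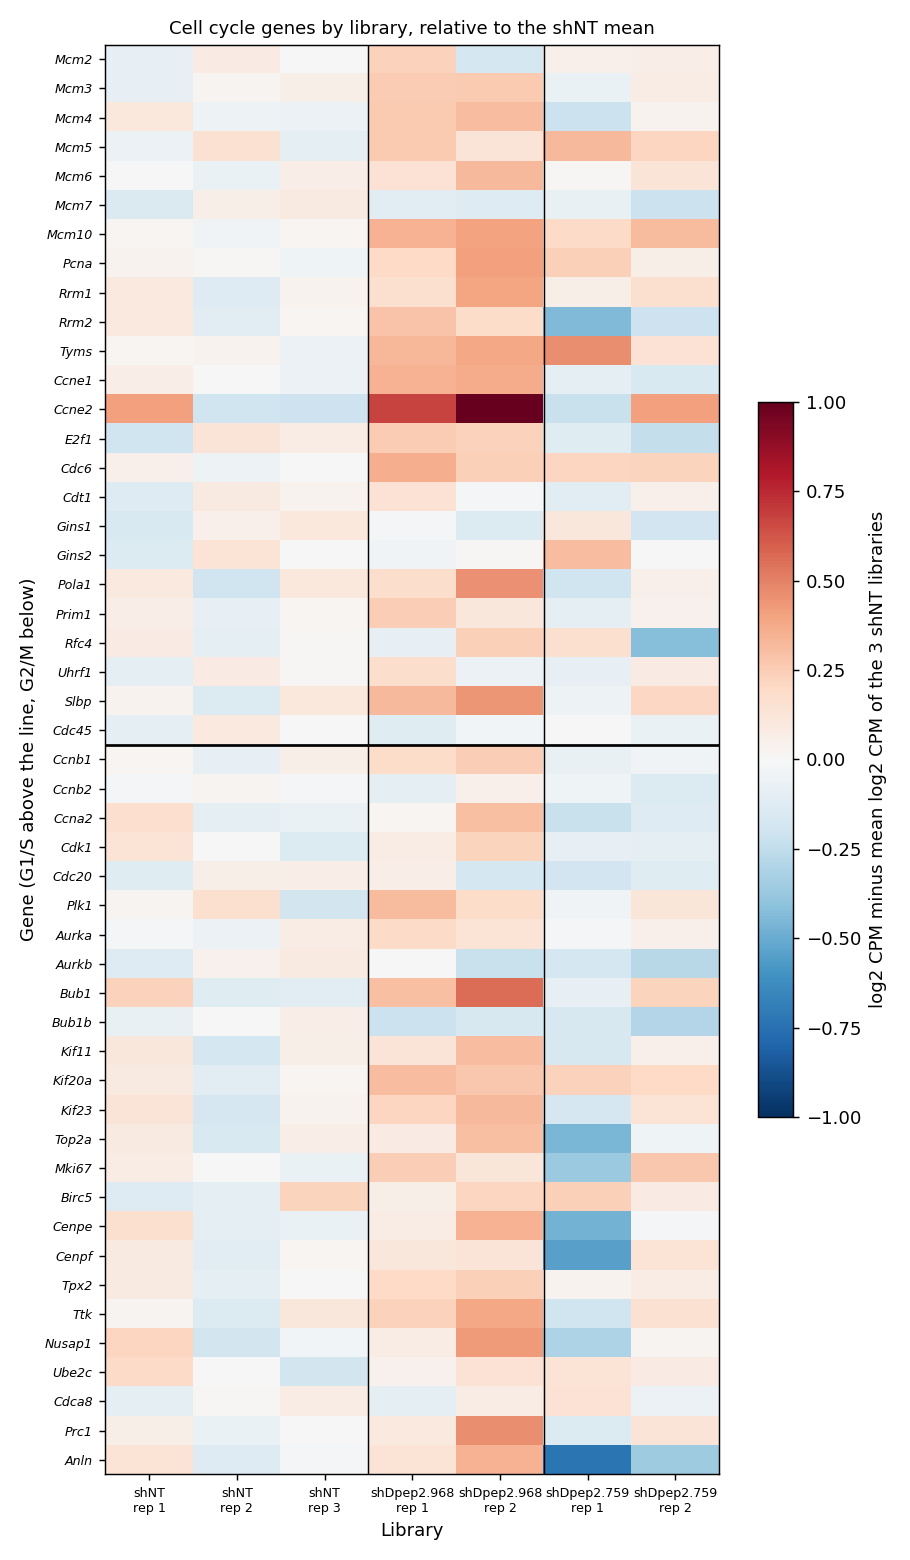
Log2 ratio of each of the 49 genes (rows, G1/S above the line and G2/M below) to its mean in shNT, in each of the 7 libraries (columns), with colours cut at 1 in either direction. Most rows are above the control mean in the shDpep2.968 columns, and G2/M rows are mostly below it in shDpep2.759 replicate 1.

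With shDpep2.968 alone the members leaned upward without passing the test. None of 49 had an adjusted p under 0.05 against shNT (edgeR), where 5.25% of tested genes were called, 2.29% higher and 2.96% lower. At an unadjusted p under 0.05, 13 members were higher (11 in G1/S and 2 in G2/M) and 0 were lower, against 10.6% and 12.5% of tested genes. The median log2 fold change was 0.23 in G1/S and 0.19 in G2/M, against -0.004 over all tested genes. Log2 fold changes were above 0 for 20 of 24 G1/S and 20 of 25 G2/M genes, against 49.6% of tested genes. G2/M members also shifted together between replicates of 1 group, as given below for the comparison of the hairpins. Both shDpep2.968 libraries lay above all 3 shNT libraries for 28 members (57.1%), 15 in G1/S and 13 in G2/M, against 20.7% of tested genes, and below them for 1, Bub1b, against 22.7%. DESeq2 called 3 members higher, Mcm10, Ccne1 and Ccne2, and limma-voom called 0. The shares of all tested genes that these tools called in this comparison are not given here, so the counts describe those members alone.

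Ccne2 had the largest value, and its relative Ccne1 did not overlap the controls either. Ccne1, cyclin E1, which starts S phase with CDK2, stood at 79.6, 75.7 and 73.0 CPM with shNT and at 96.9 and 98.3 CPM with shDpep2.968. Its libraries did not overlap, and the log2 fold change was 0.36 ± 0.11 (SE, adjusted p = 0.0759, edgeR). For Ccne2 the log2 fold change was 0.95 ± 0.26 (SE, adjusted p = 0.0727, edgeR), the largest of the 49, with a 95% interval from 0.36 to 1.55. Within G1/S the next in size were Slbp (0.38, adjusted p = 0.0972) and Mcm10 (0.37, adjusted p = 0.068), and Tyms (0.36, adjusted p = 0.13) was level with Ccne1 (edgeR). In G2/M the largest was Bub1, a checkpoint kinase of the kinetochore, at 121, 94.9 and 95.7 CPM with shNT and 127 and 152 CPM with shDpep2.968 (0.43 ± 0.15 SE, adjusted p = 0.11, edgeR). With shDpep2.759 Bub1 stood at 97.4 and 121 CPM, among the controls.

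With shDpep2.759 members lay on both sides of shNT, with shares by p and by overlap under those of all tested genes. None of 49 had an adjusted p under 0.05 against shNT (edgeR), where 4.73% of tested genes were called, 2.72% higher and 2.00% lower. At an unadjusted p under 0.05, 2 were higher (4.08%), Mcm10 and Tyms, and 2 were lower (4.08%), Rrm2 and Anln, against 9.65% and 9.67% of tested genes. The median log2 fold change was 0.004 in G1/S and -0.05 in G2/M, against 0.003 over all tested genes. Log2 fold changes were above 0 for 13 of 24 G1/S and 8 of 25 G2/M genes, against 50.6% of tested genes. Both libraries lay above all controls for 6 members (12.2%), Mcm5, Mcm10, Pcna, Tyms, Cdc6 and Kif20a, against 18.2% of tested genes. They lay below all controls for 7 (14.3%), Rrm2, Ccne1, Ccnb2, Ccna2, Aurkb, Bub1b and Anln, against 18.0% of tested genes. DESeq2 and limma-voom each called 1 member, Anln, lower, and their shares of all tested genes in this comparison are not given here. The comparisons of each hairpin share the 3 shNT libraries, so they are not independent of each other.

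Anln, anillin, a scaffold of the contractile ring in cytokinesis, was the member nearest to a call here. It stood at 109, 90.8 and 98.2 CPM with shNT and 59.8 and 77.4 CPM with shDpep2.759, with no overlap (log2 fold change -0.53 ± 0.14 SE, adjusted p = 0.0511, edgeR). With shDpep2.968 it stood at 109 and 126 CPM, at or above the highest control. Rrm2 was at 290.4, 251 and 275 CPM with shNT, 199.9 and 235 CPM with shDpep2.759 (-0.32 ± 0.13 SE, adjusted p = 0.185, edgeR) and 330.4 and 309 CPM with shDpep2.968. For both genes shDpep2.759 lay below the controls and shDpep2.968 above them.

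The hairpins were then compared with each other. Anln was the 1 member of 49 (2.04%) with an adjusted p under 0.05 (edgeR), higher with shDpep2.968, where 0.840% of tested genes were called, 0.255% higher and 0.585% lower. Its log2 fold change was 0.78 ± 0.15 (SE), with a 95% interval from 0.44 to 1.11 and an adjusted p of 0.0361. Leaving out 1 library at a time ended the call in 5 of 7 cases (edgeR). The adjusted p was 0.218 with shDpep2.759 replicate 1 left out (log2 fold change 0.60), and 0.082 and 0.338 with replicate 1 and replicate 2 of shDpep2.968 left out. Dropping replicate 2 or 3 of shNT gave 0.0588 and 0.0954. The call held with an adjusted p of 0.0483 after dropping shNT replicate 1 and 0.00321 after dropping shDpep2.759 replicate 2 (edgeR). DESeq2 called 4 members, Anln, Rrm2, Ccne1 and Ccne2, and limma-voom called Anln. Of all tested genes DESeq2 also called more than edgeR did between the hairpins, as counted in the closing section.

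At an unadjusted p under 0.05, 12 members were higher with shDpep2.968 and 0 were lower, against 6.73% and 8.29% of tested genes. The 2 shDpep2.968 libraries lay above both shDpep2.759 libraries for 28 members (57.1%) and below them for 0, against 20.4% and 22.5% of tested genes. The median difference was 0.16 in G1/S and 0.24 in G2/M on the log2 scale, against -0.014 over all tested genes. It was above 0 for 19 of 24 G1/S and 22 of 25 G2/M genes, against 48.4% of tested genes. Replicates of 1 group also shifted G2/M genes together. Across such pairs 7 to 20 of 25 were higher in the later replicate, with medians from -0.16 to 0.14. For G1/S genes it was 11 to 14 of 24, and for tested genes of at least 10 CPM 49.2% to 52.8%. Counts of members by direction, here and against shNT, are therefore not counts of independent genes. The difference in Rrm2 was 0.56 ± 0.14 (SE, adjusted p = 0.0884, edgeR), and that in Ccne1 was 0.48 ± 0.12 (SE, adjusted p = 0.087, edgeR), with Ccne1 at 71.1 and 68.3 CPM with shDpep2.759. E2f1, the transcription factor that drives S phase genes, stood at 52.9, 66.3 and 64.0 CPM with shNT, 72.3 and 71.2 CPM with shDpep2.968, and 55.9 and 51.5 CPM with shDpep2.759. Its difference between the hairpins was 0.42 ± 0.14 (SE, adjusted p = 0.197, edgeR), and neither hairpin set it apart from shNT by that test.

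For 6 G2/M genes given here, picked after their values were seen, shDpep2.759 replicate 1 was the lowest of the 7 libraries. It was also the lowest for Anln (59.8 CPM), Cdc20 (72.2 CPM), Ttk (29.6 CPM) and Prc1 (57.8 CPM), and not for the other G2/M genes. How often it was the lowest over all tested genes was not counted. Top2a stood at 341, 289 and 336 CPM with shNT, 339.9 and 397 CPM with shDpep2.968, and 234 and 312 CPM with shDpep2.759. Its difference between hairpins was 0.43 ± 0.16 (SE, adjusted p = 0.251, edgeR), and the low value was that of shDpep2.759 replicate 1. Cenpe, a kinetochore motor, stood at 98.4, 82.6 and 84.4 CPM, then 92.6 and 112 CPM, then 63.7 and 87.0 CPM (0.44 ± 0.17 SE, adjusted p = 0.245, edgeR). Mki67, the proliferation marker Ki-67 that coats mitotic chromosomes, stood at 297, 281 and 269 CPM, then 335 and 307 CPM, then 217.5 and 340.4 CPM, so the 2 shDpep2.759 libraries spanned all others. Cenpf stood at 47.3, 41.0 and 45.0 CPM, then 48.0 and 48.6 CPM, then 30.5 and 48.8 CPM. Nusap1 stood at 35.7, 27.0 and 30.1 CPM, then 32.4 and 41.3 CPM, then 24.8 and 31.3 CPM, and Ccna2, cyclin A2, at 120.0, 99.7 and 102 CPM, then 108 and 131 CPM, then 91.6 and 97.6 CPM. In Ccna2 both shDpep2.759 libraries lay below all controls, and in Top2a, Cenpe, Nusap1 and Ccna2 a shDpep2.968 library lay within the controls. With shDpep2.759 replicate 2 left out, 6 members were called between the hairpins, where 7.69% of tested genes were called in place of 0.840%. With replicate 1 left out, the median G2/M difference was 0.15 and 0 members were called, where 0.237% of tested genes were called. In both fits shDpep2.759 holds 1 library, which is assumed to vary like those of the other groups.

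**Figure D3:**
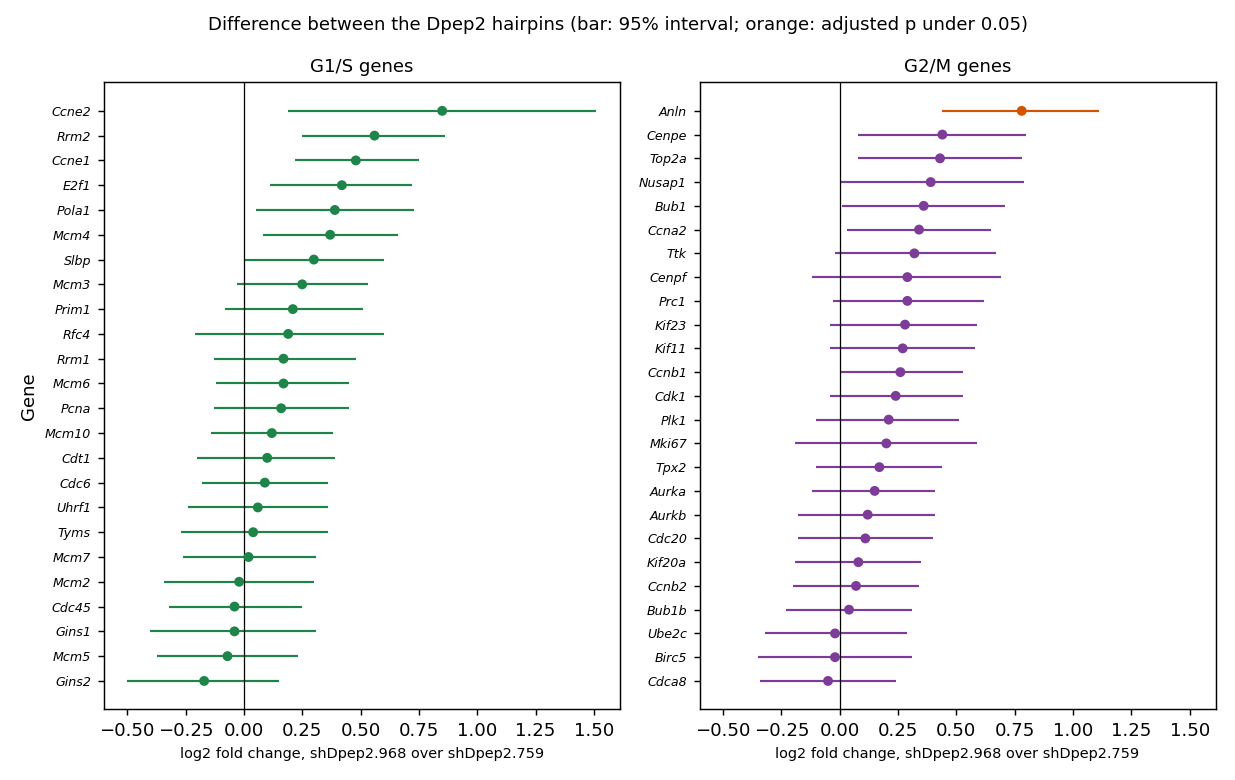
Log2 fold change of shDpep2.968 over shDpep2.759 (x axis) for each G1/S and G2/M gene (y axis), with bars for the 95% interval and orange for an adjusted p under 0.05 (edgeR). Anln, at 0.78 with an interval from 0.44 to 1.11, is the single orange point.

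The phases were compared as whole lists in each library, by the mean of log2(CPM + 1) over their genes. For G1/S the level was 6.55, 6.54 and 6.56 with shNT, 6.75 and 6.78 with shDpep2.968, and 6.57 and 6.58 with shDpep2.759. Both shDpep2.968 libraries lay above every other library, and the mean was 0.21 above that of shNT. For G2/M it was 6.53, 6.41 and 6.48 with shNT, 6.59 and 6.68 with shDpep2.968, and 6.32 and 6.48 with shDpep2.759. Here shDpep2.968 again lay above every other library, by 0.16 over shNT on average, while shDpep2.759 overlapped shNT. The pooled SD within groups was 0.014 for the G1/S level and 0.078 for the G2/M level. As summed levels, G1/S genes took 2953 to 2991 CPM with shNT, 3420 to 3448 CPM with shDpep2.968 and 2975 to 3073 CPM with shDpep2.759. The summed G2/M genes took 2461 to 2685 CPM, 2794 to 2972 CPM and 2282 to 2601 CPM in the same order.

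The balance of the phases did not separate the groups. The G2/M level minus the G1/S level was -0.02, -0.13 and -0.08 with shNT, -0.17 and -0.10 with shDpep2.968, and -0.24 and -0.10 with shDpep2.759. The values of the 3 groups overlapped, and the lowest was that of shDpep2.759 replicate 1. In that library 13 of 25 G2/M genes lay below all controls, against 5 in replicate 2 and 3 in each shDpep2.968 library. Over all tested genes 32.4% lay below all controls in that library, 33.1% in replicate 2 and 32.2% and 37.0% in the shDpep2.968 libraries.

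**Figure D4:**
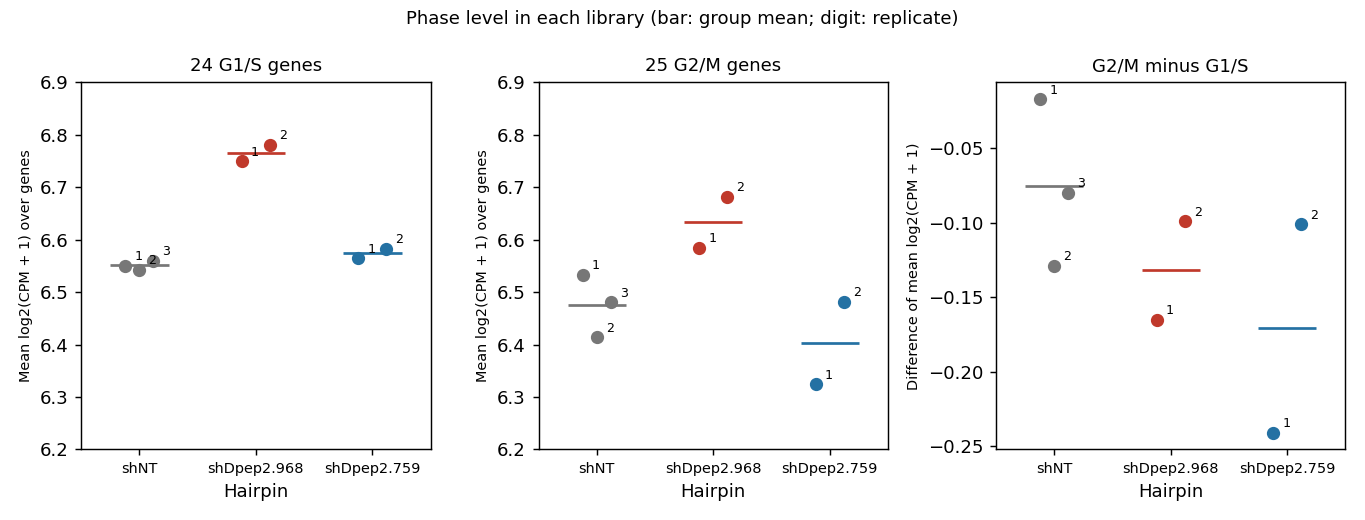
Mean log2(CPM + 1) over the genes of each phase (y axis) in each library, by hairpin (x axis), with digits for replicates and a bar for the group mean. The 2 shDpep2.968 libraries are the highest for G1/S, at 6.75 and 6.78, and for G2/M, at 6.59 and 6.68.

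Base composition moved with these values. The longest coding transcripts of the members had a median GC content of 48.2% (G1/S) and 46.6% (G2/M), against 49.7% over 12757 tested genes with a value. Across the 49 members, Spearman's correlation of the difference between the hairpins with GC content was -0.61, and it was -0.79 over the 25 G2/M genes, against -0.29 over all tested genes. Members low in GC content had the larger differences. For shDpep2.968 against shNT the correlation with GC was -0.45 over members and -0.36 over all tested genes. For shDpep2.759 against shNT it was 0.16 over members, 0.26 over G2/M genes and -0.09 over all tested genes. Replicates of 1 group differed along GC too: shNT replicate 2 over replicate 1 gave 0.80 over members and 0.76 over 8785 genes of at least 10 CPM. The same measure was -0.68 over members for shDpep2.968 replicate 2 over replicate 1 and -0.53 for shDpep2.759 replicate 2 over replicate 1. These correlations are across genes within the same libraries and are descriptions.

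With each library corrected for GC content and transcript length, more of all tested genes were called. The shares were 17% in the averaged comparison, 13.7% for shDpep2.968, 13.3% for shDpep2.759 and 4.31% between the hairpins. Members called were then 4 of 49 in the averaged comparison, Mcm5, Mcm10, Tyms and Cdc6, all higher, and 7 for shDpep2.968 against shNT, Mcm3, Mcm10, Ccne1, Ccne2, E2f1, Cdc6 and Plk1, all higher. For shDpep2.759 against shNT 2 were called, Rrm2 and Anln, both lower, and between the hairpins 5, Rrm2, Ccne1, Ccne2, E2f1 and Anln, all higher with shDpep2.968. Against shNT these member counts are near or under the share of all tested genes called in either direction. Between the hairpins 5 of 49 is above the 4.31% of tested genes. The members called went 1 way in each comparison, and the shares by direction with the correction are not given here. The log2 fold change of Ccne2 for shDpep2.968 against shNT went from 0.95 to 0.57. The median for shDpep2.968 against shNT moved from 0.23 to 0.18 in G1/S and from 0.19 to 0.11 in G2/M. Between the hairpins the medians were 0.15 and 0.21, and Anln was at 0.72 with an adjusted p of 0.00235 (edgeR).

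**Figure D5:**
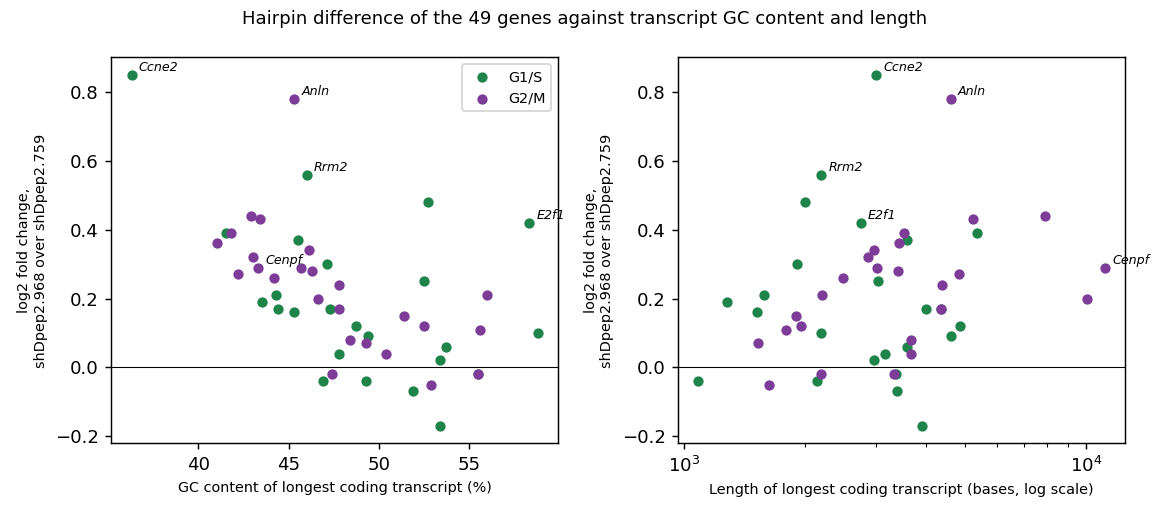
Log2 fold change of shDpep2.968 over shDpep2.759 (y axis) against the GC content in percent and the length in bases (x axes) of each member's transcript, with G1/S and G2/M genes in different colours. Members of low GC content sit higher, with a Spearman correlation of -0.61 over 49 genes.

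Other genes of the cell cycle, in lists that hold no member, were called in few cases. In the averaged comparison 3.44% of tested genes were called higher and 4.15% lower. Lists this short cannot set a count of 0 or 1 apart from those shares. In the averaged comparison none of the G1 cyclins and their kinases was called. In that list of 9 genes, which also holds Skp2, Cks1b and Cdc25a, 1 gene rose. It was Cdc25a, the phosphatase that activates CDK2. It stood at 46.0, 41.8 and 47.1 CPM with shNT, 66.1 and 61.1 CPM with shDpep2.968, and 59.2 and 71.5 CPM with shDpep2.759, a log2 fold change of 0.52 ± 0.11 (SE, adjusted p = 0.0115, edgeR). Cdc25a passed with each hairpin alone (adjusted p = 0.0393 and 0.0277, edgeR). Its mitotic relative Cdc25b was the 1 of 19 other mitotic entry and exit genes that fell, from 85.6, 92.8 and 91.2 CPM to 70.1, 68.3, 70.2 and 64.5 CPM in the hairpin libraries (-0.40 ± 0.09 SE, adjusted p = 0.0224, edgeR). Of 30 other replication fork and nucleotide genes, Pold2, a subunit of DNA polymerase delta, fell (-0.46 ± 0.13 SE, adjusted p = 0.0458, edgeR), and the other 29 did not pass. Of 15 p53 targets tested, Plk2, a polo-like kinase, rose (0.78 ± 0.12 SE, adjusted p = 0.0022, edgeR). The list as a whole did not rise: its median log2 fold change was -0.154, with 5 genes above 0 and 10 below. At an unadjusted p under 0.05 (edgeR), 3 of its genes were higher and 4 were lower.

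None of the tested CDK inhibitors or of the E2F, RB and DREAM regulators passed in any comparison. Each list is too short to set 0 calls apart from the 7.59% of tested genes called in the averaged comparison. Of 8 CDK inhibitors 5 were tested and 0 were called (edgeR), with 1, Cdkn2d, lower at an unadjusted p under 0.05 in the averaged comparison. Cdkn1a, p21, stood at 463, 496 and 459 CPM with shNT, 528 and 493 CPM with shDpep2.968, and 474 and 447 CPM with shDpep2.759. For Cdkn1a each hairpin overlapped shNT, and both shDpep2.968 libraries lay above both shDpep2.759 libraries. Cdkn2a, Cdkn2b and Cdkn1c were listed at 0.0 CPM in all 7 libraries. Of 18 E2F, RB and DREAM regulators 0 were called (edgeR), with 2 lower at an unadjusted p under 0.05, and the smallest p in the averaged comparison was that of Rbl2, the pocket protein p130, at 32.8, 32.8 and 31.2 CPM with shNT and 25 to 26.2 CPM in the hairpin libraries (-0.34 ± 0.10 SE, adjusted p = 0.0678, edgeR). Foxm1 and Mybl2, the activators of G2/M genes, had averaged log2 fold changes of 0.00 ± 0.11 and 0.02 ± 0.10 (SE). Also with 0 called in the averaged comparison were the 14 other licensing and firing genes, 18 other checkpoint and kinetochore genes, 19 other motor, spindle and cytokinesis genes and 16 condensin, cohesin and compaction genes (edgeR). At an unadjusted p under 0.05 they held 1 gene, Orc5, that was higher and 0 that were lower. The smallest p in each of these 4 lists belonged to Orc5 (0.35), Incenp (0.17), Kif18a (-0.29) and Ncapd3 (-0.15, all averaged log2 fold changes).

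Between the hairpins, where 0.840% of tested genes were called, 1 gene of these lists passed. This was Ccnd2, cyclin D2, which with CDK4 and CDK6 starts the release of E2F. It stood at 84.2, 71.3 and 80.8 CPM with shNT, 89.3 and 107 CPM with shDpep2.968, and 52.8 and 59.9 CPM with shDpep2.759, a difference of 0.80 ± 0.14 (SE, adjusted p = 0.0249, edgeR). As with Anln and Rrm2, both shDpep2.968 libraries lay above the shNT libraries and both shDpep2.759 libraries below them. Against shNT alone, Gadd45a, a growth arrest gene, fell with shDpep2.968 (-0.76 ± 0.20 SE, adjusted p = 0.0461) and Fas, a death receptor, rose with shDpep2.759 (0.70 ± 0.16 SE, adjusted p = 0.0254, edgeR), both from the p53 list.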

How the data were processed

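Whole-number counts per gene were deposited by the authors as 1 table of all 7 libraries. Per the labels' protocols, total RNA was made into stranded libraries and sequenced as read pairs. Per the submitters' processing notes, Trim Galore and Salmon were used, with no version, and the build was hg38, although the symbols are mouse ones. Whether the counts are rounded Salmon estimates is not given in the sources used here, and no coordinates were taken from that build. Counts were fitted in edgeR 4.0.16 (R 4.3.3) with filterByExpr, TMM scaling, 1 mean per group over all 7 libraries (4 residual degrees of freedom) and the robust quasi-likelihood test, with Benjamini-Hochberg adjustment over 13329 genes at 0.05. CPM use TMM-scaled totals, and the phase level uses a pseudocount of 1 CPM. DESeq2 1.42.0, limma-voom (limma 3.58.1), other scalings, filters, a GC and length correction and each library left out were alternatives. GC content and length came from GENCODE M21 and covered 95.7% of tested genes and all 49 members, and promoters came from RefSeq on GRCm38.p6. The fit was tested on simulated data.

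The members and lists were chosen with earlier results of these data known. The phases were split after Cdc45, which gives 24 and 25 genes. Members named with all values were those called, those with the smallest p in each phase in the averaged comparison (5) and between the hairpins (3), 9 reference genes, and the 2 highest and 2 lowest per kilobase in each phase. From each other list the genes called, at most 3, or the smallest p were named. The result of 1 further list is not reported here. Cdkn1a, Foxm1, Mybl2, Ccnd2, Gadd45a and Fas, and other members given with a fold change alone, fall outside that rule and were named after their values were seen.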

Additional observations from a re-analysis of the deposited data

Results flagged for a closer look

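Anln differed between the hairpins by the test of the difference itself (log2 fold change 0.78, shDpep2.968 over shDpep2.759, adjusted p = 0.0361, edgeR). It lay above the controls' mean with shDpep2.968 (0.24 ± 0.14 SE) and below it with shDpep2.759 (-0.53 ± 0.14 SE).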

How the results depend on the processing

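Depth was high for every member, and the number of libraries (2 or 3 a group) limits precision. Members called (0 averaged, 0 for shDpep2.968, 0 for shDpep2.759 and 1 between the hairpins) became 1, 2, 1 and 3 with no low-count filter, 1, 3, 1 and 4 with DESeq2, and 4, 7, 2 and 5 with the GC and length correction. With only the compared groups fitted they were 2 for shDpep2.968 against shNT and 0 between the hairpins. For shDpep2.759 against shNT, library size alone and limma-voom each gave 1, and between the hairpins the fit without robust estimation gave 0. The share of all tested genes called is not given for each of these settings, nor the number of genes tested with no filter. More of all tested genes were also called with no filter, with the correction, and with DESeq2 between the hairpins. These counts therefore describe the members alone. Leaving out each library in turn gave 0 to 1, 0 to 2, 0 to 1 and 0 to 6 members.

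The G1/S median in the averaged comparison (0.108) was 0.13 with the GC and length correction, 0.123 with all hairpin libraries as 1 group and 0.083 to 0.135 with each library left out. For shDpep2.968 (0.234) it was 0.181 with the correction and 0.22 to 0.264 with libraries left out, and for shDpep2.759 (0.004) 0.025 with the correction, -0.023 with library size alone and -0.038 to 0.051 with libraries left out. Between the hairpins (0.162) it was 0.19 with library size alone, 0.18 with the compared groups only and 0.136 to 0.214 with libraries left out. The G2/M median in the averaged comparison (0.079) was 0.011 with the correction, 0.043 with a replicate block and 0.01 to 0.101 with libraries left out. The G2/M median for shDpep2.968 (0.194) was 0.105 with the correction and 0.094 to 0.247 with libraries left out, for shDpep2.759 (-0.053) it was -0.17 to 0.046, and between the hairpins (0.242) 0.15 to 0.306. The G1/S level of shDpep2.759 minus shNT (0.023) was -0.005 with library size alone. The cause of these changes was not tested.

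Same-numbered libraries had correlations of their deviations from group means from -0.207 to 0.064, and different-numbered libraries from -0.072 to 0.207. In a group of 2 the deviations mirror each other, so these values cannot settle whether the replicate numbers pair the libraries. With a replicate block the members called were the same in number in all 4 comparisons (0, 0, 0 and 1), while all tested genes called went from 1012 to 404, 700 to 308, 630 to 312 and 112 to 130. The G1/S median with the block was 0.088 averaged and 0.259 for shDpep2.968. All tested genes called averaged were 1590 with no filter, 540 with hairpin libraries as 1 group and 2268 with the correction. For shDpep2.968 they were 1443 with no filter, 1821 with the correction and 1350 with the compared groups only, and for shDpep2.759 they were 1131 and 1768 with no filter and the correction. Between the hairpins they were 669 with no filter, 376 with DESeq2, 63 without robust estimation, 574 with the correction, 61 with the compared groups only, and 6 to 1070 with libraries left out.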
